A study of Mus musculus with 6 samples.

Results

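The genes described here are 51 transcription factors outside the Hox clusters that give cells of the embryo their position along the body or a limb. All 51 had at least 1 probe set that the platform table assigns to that gene alone, out of 18193 genes measured in this way, and each was read by its probe set with the highest mean over all 6 arrays. The RNA came from cultured fibroblasts grown from the tail tips of newborn mice, a cell type that in adults and in culture keeps part of the positional code of its place of origin. The groups were 3 arrays labelled Hotair wildtype and 3 labelled Hotair knockout, both from mice backcrossed to C57BL6 to more than 97% similarity and with no treatment in the labels. *Hotair*, the long noncoding RNA disrupted in the knockout, lies in the Hoxc cluster and was not analysed here, which leaves the labelled genotypes without a check on that gene. The labels do not say how the allele was made, which sex the pups were or whether replicates were separate animals.

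Positional factors act in layers. Caudal (Cdx) factors pattern the posterior trunk, T-box, Pitx and LIM-homeodomain factors separate limb types and limb axes, and Msx, Dlx, Pax, Iroquois (Irx) and Fox factors carry out local programmes under BMP, Hedgehog and other signals. Meis and Pbx proteins of the TALE class bind DNA together with Hox proteins. Prrx and Twist factors are known as general factors of mesenchyme, the loose embryonic tissue from which fibroblasts derive.

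The values are deposited log2 summaries made by RMA, so a difference of 1 is a doubling of signal. Array medians over all non-control probe sets lay between 5.56 and 5.68. Replicate 1 of both genotypes stood apart from the other 4 arrays. The mean of 11 measured proliferation genes was 8.65 in wild-type replicate 1 and 9.27 in knockout replicate 1, against 11.40 to 11.74 on the others, and knockout replicate 1 had a 3′ minus 5′ difference of 0.63 for *Actb* and 0.75 for *Gapdh* controls, against at most 0.21 and −0.03 elsewhere. Results are therefore given over all 6 arrays and also without replicate 1 of both genotypes, which leaves 2 arrays against 2; that choice was known from earlier results on these data. All 12 fibroblast markers listed, among them collagen genes, *Dcn* and *Thy1*, were above background. Their mean level was 10.18 to 11.82 on the wild-type arrays and 11.99 to 12.64 in knockout, which did not overlap, and its part in the results below was not tested. Of the defining markers of other cells, 3 of 8 keratinocyte, 1 of 6 endothelial, 2 of 7 skeletal muscle, 2 of 6 cartilage, 4 of 6 leukocyte, 1 of 3 bone, 4 of 6 glial and melanocyte and 4 of 5 smooth muscle genes were above background, and limma called none of them with all 6 arrays in the fit. The leukocyte mean was 5.73 to 6.45 on the wild-type arrays and 5.34 to 7.11 in knockout. It was highest in replicate 1 of both genotypes (6.45 and 7.11), against 5.34 to 5.96 on the other 4 arrays. In such bulk RNA, fewer cells of a type and less RNA per cell cannot be told apart.

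Above background on average in these fibroblasts were 7 of 7 Odd-skipped, Prrx, Shox and Twist genes, 4 of 4 Meis and Pbx genes, 3 of 3 Pax genes, 4 of 5 Iroquois and sine oculis homeobox genes, 5 of 8 Msx and Dlx genes, 5 of 9 T-box genes and 0 of 3 Cdx genes. In the remaining families these were 4 of 7 Pitx, LIM-homeodomain, En and Emx genes and 4 of 5 Fox, Hand, Barx and Dmrt genes. All means of the last family lay between 5.12 and 5.85. No other cell type was compared. Background was set from 71 olfactory and vomeronasal receptor genes, which fibroblasts should not use, as the 95th percentile of their means (5.31). By this measure 36 of the 51 positional factors were above background, a share of 70.6% against 66.3% of all genes. At the 99th percentile (5.76) there were 31, and 20 lay above the median of all genes (6.90). Brightness differs between probe sets for reasons of sequence, so levels of different genes are not ranked beyond this.

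The highest means belonged to *Prrx1* and *Prrx2*, paired-related homeobox factors of limb and skin mesenchyme, and to *Twist2*, a bHLH factor of dermis. *Prrx1* measured 10.57, 11.47 and 11.68 in wild-type replicates 1 to 3 and 10.99, 11.98 and 11.85 in knockout. *Prrx2* measured 11.58, 11.67 and 10.56 on the wild-type arrays and 11.78, 10.82 and 11.55 in knockout. The genotypes overlapped for both, with differences (knockout minus wild type) of 0.37 (95% interval −0.61 to 1.35) and 0.11 (−0.87 to 1.09). The intervals leave room for a change of about 1 in either direction for *Prrx2*. All 6 probe sets of *Prrx1* lay above 0, between 0.06 and 0.55. *Twist2* measured 10.93, 10.39 and 10.60 on the wild-type arrays and 10.56, 11.64 and 11.66 in knockout, so that knockout replicate 1 sat among the wild-type arrays. The difference of *Twist2* was 0.65 ± 0.35 (SE; limma adjusted p = 0.797) and 1.15 without replicate 1 (adjusted p = 0.014). Its relative *Twist1* measured 9.84, 11.03 and 10.19 on the wild-type arrays and 10.09, 9.04 and 9.59 in knockout.

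Other factors were above background with genotypes that overlapped. *Tbx15*, a factor of dorsal dermis, had array values from 8.22 to 9.06, and *Tbx18*, a factor of mesenchymal condensations, from 8.77 to 9.99. *Irx2* ranged from 7.29 to 8.12, *Msx1* from 6.54 to 7.27 and *Dlx2* from 7.19 to 8.61. Low but above background were *Dlx3*, *Meis3*, *En1*, *Foxf1* and the hindlimb factor *Pitx1*, with means of 5.62 to 6.49. The probe set used for *Foxf1* differed by −0.09. Its second probe set measured 7.46, 5.23 and 5.29 on the wild-type arrays and 6.32, 4.56 and 4.18 in knockout, a difference of −0.98. The mean of that probe set was above background only through replicate 1 of both genotypes, and the other 4 arrays were under it. The forelimb factor *Tbx5* (5.39), the posterior limb factor *Hand2* (5.38) and *Pax3* (5.32), a factor of the dermomyotome and neural crest, lay just inside the limit, and *Cdx2* (5.20) and *Barx1* (5.12) just outside.

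The 15 members that were not above background were *Cdx1*, *Cdx2* and *Cdx4*, the T-box genes *Tbx1*, *Tbx2*, *Tbx6* and *Tbx20*, *Dlx4*, *Dlx5* and *Dlx6*, *Lhx2*, *Lmx1b* (dorsal limb), *En2*, *Six2* and *Barx1*. Their means lay between 3.19 and 5.20, and their differences between genotypes between −0.39 and 0.28.

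**Figure D1:**
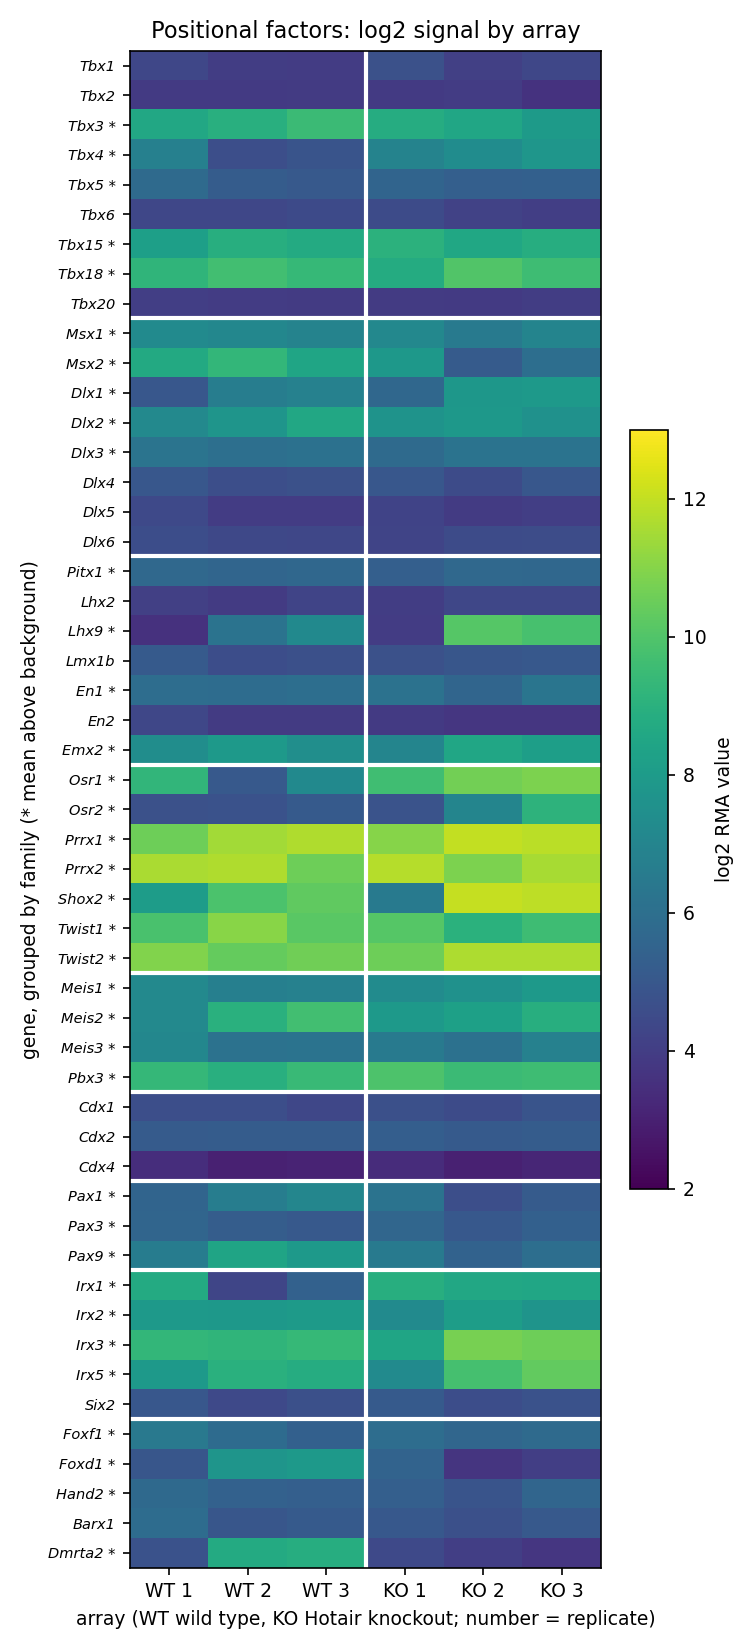
Log2 RMA value (colour) of the 51 genes (rows, grouped by family, with an asterisk where the mean is above background) on each of the 6 arrays (columns, WT wild type, KO knockout). *Prrx1*, *Prrx2* and *Twist2* are bright on every array, the Cdx genes are dark on every array, and *Osr1*, *Lhx9*, *Shox2*, *Irx1*, *Foxd1* and *Dmrta2* change between arrays of the same genotype.

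Between genotypes, the factors with the largest values on the higher side were *Osr1*, *Irx1*, *Lhx9*, *Osr2* and *Tbx4*, each by at least 1, and on the lower side *Dmrta2*, *Msx2*, *Foxd1*, *Pax9* and *Pax1*. These were 5 members in each direction (9.80%), where 3.05% of all genes were higher and 2.45% lower by that much. None of the 51 passed limma's test over all 18193 genes (smallest adjusted p 0.743), where 0.00% of all genes were called. At an unadjusted p under 0.05, 3 members were higher in knockout (*Tbx4*, *Osr1* and *Meis1*; 5.88% against 4.01% of all genes) and 4 were lower (*Msx2*, *Pax9*, *Foxd1* and *Dmrta2*; 7.84% against 2.67%). With the replicate number as a block the higher side had 7 members (13.7% against 6.86% of all genes), with *Dlx1*, *Lhx9*, *Osr2* and *Irx1* added. The lower side had 3 (5.88% against 4.23%), without *Foxd1*. With array weights, limma called 6 members higher (11.8% against 6.70% of all genes) and 6 lower (11.8% against 4.85%) at an adjusted p under 0.05. Leaving out wild-type replicates 2 or 3 or knockout replicates 2 or 3 left 1, 0, 1 and 0 at an unadjusted p under 0.05 on the higher side and 1, 1, 1 and 2 on the lower. Leaving out knockout replicate 1 gave 11 and 5, and no share of all genes is given for these leave-outs. Of the 51 differences 28 were positive and 23 negative, and their median was 0.03 against 0.01 for all genes. Centring each array on its median moved the median of all genes by −0.11 and the split to 20 above and 31 below, and quantile normalisation moved the split to 23 and 28.

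Without replicate 1 of both genotypes, limma called 16 of the 51 genes at an adjusted p under 0.05, 31.4% against 14.0% of all genes. On the higher side were 11 (21.6% against 7.56%), namely *Tbx4*, *Osr1*, *Osr2*, *Irx1*, *Irx3*, *Irx5*, *Lhx9*, *Shox2*, *Dlx1*, *Meis1* and *Twist2*. On the lower side were 5 (9.80% against 6.41%), namely *Msx2*, *Pax1*, *Pax9*, *Foxd1* and *Dmrta2*. Large differences were rare within replicate 1: 1 member, *Shox2*, differed by 1 or more there (1.96% against 4.34% of all genes), against 15 in replicate 2 (29.4% against 11.8%) and 18 in replicate 3 (35.3% against 14.1%). The median absolute difference of the members was closer, at 0.37, 0.44 and 0.43 in replicates 1 to 3 (0.24, 0.26 and 0.31 over all genes). Of the 16 genes, wild-type replicate 1 lay nearer to knockout replicates 2 and 3 for 7 (*Tbx4*, *Osr1*, *Irx1*, *Pax1*, *Pax9*, *Foxd1* and *Dmrta2*). Knockout replicate 1 lay nearer to wild-type replicates 2 and 3 for 9 (*Msx2*, *Dlx1*, *Lhx9*, *Osr2*, *Shox2*, *Twist2*, *Pax1*, *Irx3* and *Irx5*). Over all 3 replicate numbers, 16 of the 51 genes differed in 1 direction, 31.4% and so close to the 30.5% of all genes. Marker genes moved in the same fit: 5 of the 12 fibroblast markers were called higher in knockout (*Thy1* by 4.50, *Dcn* by 4.35, *Fbln1* by 3.27, *Lum* by 3.12 and *Col3a1* by 0.86). In other lists single genes were called. Higher were *Cnn1*, 1 of 5 smooth muscle genes (3.05), and *Mitf*, 1 of 6 glial and melanocyte genes (1.39). Lower were *Cd14*, 1 of 6 leukocyte genes (−2.81), *Acta1*, 1 of 7 skeletal muscle genes (−2.73), and *Rrm2*, 1 of 11 proliferation genes (−1.06). The median differences of these lists were 0.01, 0.03, 0.01, −0.01 and 0.27 in this order, so the single genes do not stand for their lists. The part of these markers in the 16 calls was not tested. Nor was that of the low proliferation level, the high leukocyte mean and the 3′ to 5′ values of replicate 1.

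**Figure D2:**
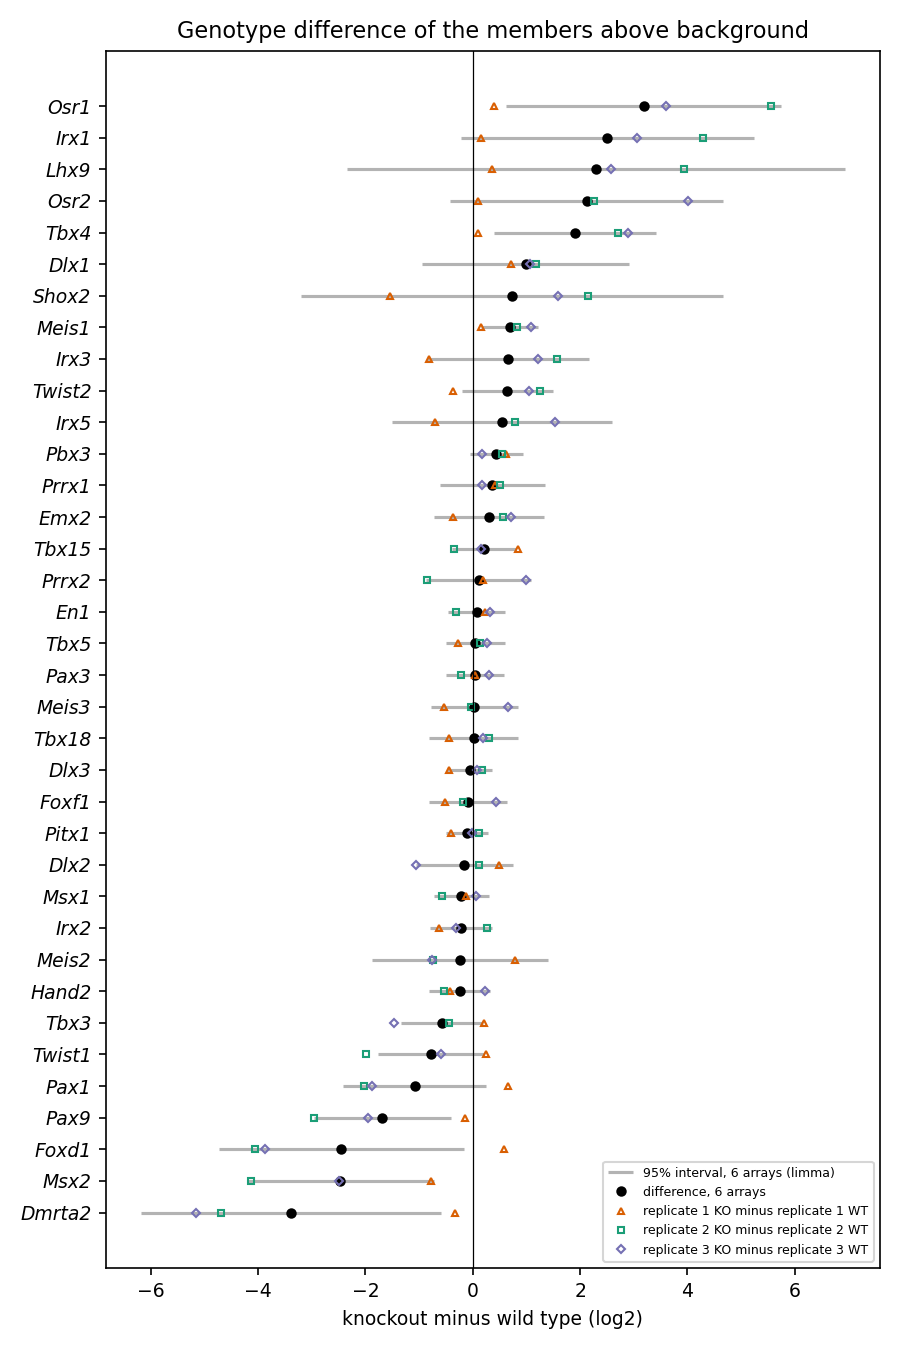
Knockout minus wild type in log2 units (x axis) for the 36 members above background (y axis), with black points for all 6 arrays, grey bars for limma's 95% interval and open symbols for the difference within each replicate number. Triangles of replicate 1 lie close to 0 for *Osr1*, *Irx1*, *Osr2*, *Tbx4* and *Dmrta2*, where the squares and diamonds of replicates 2 and 3 lie from 2.25 to 5.57 away from 0.

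The Odd-skipped factors *Osr1* and *Osr2*, zinc finger proteins of kidney, limb and connective tissue, were both higher in knockout. *Osr1* measured 9.23, 5.09 and 7.23 in wild-type replicates 1 to 3 and 9.62, 10.65 and 10.84 in knockout. The lowest knockout array was above the highest wild-type array, but by less than wild-type arrays differed among themselves. The difference was 3.19 ± 1.04 (SE; limma adjusted p = 0.743), and 4.59 without replicate 1 (adjusted p = 0.017). *Osr2* measured 4.72, 4.77 and 5.10 in wild type, all under the background level, and 4.82, 7.03 and 9.12 in knockout. With wild type set to the background level, the knockout mean was at least 3.20-fold brighter, and at least 6.77-fold without replicate 1 (limma adjusted p = 0.040 there and 0.770 over all 6 arrays). These folds compare means and do not bound the true change. The measured difference over all 6 arrays was 2.13 ± 1.04 (SE; 95% interval −0.42 to 4.67), with overlapping genotypes. The signal in knockout came from replicates 2 and 3 alone, and the second probe set of *Osr2*, under background throughout, differed by 0.18.

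*Tbx4*, the T-box factor of hindlimb and lung mesenchyme, measured 6.81, 4.63 and 4.88 on the wild-type arrays and 6.92, 7.35 and 7.78 in knockout. Wild-type replicate 1 nearly reached the lowest knockout array, while the other 2 wild-type arrays were under the background level. The means were 5.44 ± 1.19 and 7.35 ± 0.43 (SD, n = 3), a difference of 1.91 ± 0.62 (SE; limma adjusted p = 0.743). Without replicate 1 the knockout mean was at least 4.75-fold brighter with wild type set to the background level (adjusted p = 0.006). Its second probe set, also above background by its mean, differed by 0.82, but the genotypes overlapped there. It measured 5.55, 5.10 and 4.43 on the wild-type arrays and 5.50, 5.63 and 6.40 in knockout. *Tbx3*, a T-box factor of limb margins and mammary line, was at 8.61, 8.93 and 9.48 on the wild-type arrays and 8.82, 8.50 and 8.00 in knockout, a difference of −0.57 ± 0.31 (SE) with overlapping genotypes. *Tbx2* and *Tbx4* are neighbours in the genome, as are *Tbx3* and *Tbx5*, and *Tbx2* was under background on all arrays.

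Among the Iroquois homeobox genes, *Irx1* differed most. It measured 8.74, 4.31 and 5.43 on the wild-type arrays and 8.90, 8.59 and 8.50 in knockout, so wild-type replicate 1 lay within the knockout range. The difference was 2.51 ± 1.11 (SE; limma adjusted p = 0.760) and 3.68 without replicate 1 (adjusted p = 0.009). Its neighbour *Irx2* differed by −0.22 ± 0.23 (SE). *Irx3* and *Irx5*, lie next to each other in another cluster. *Irx3* measured 9.30, 9.18 and 9.38 on the wild-type arrays and 8.49, 10.76 and 10.59 in knockout, and *Irx5* measured 7.96, 8.97 and 8.81 against 7.26, 9.77 and 10.35. In both, knockout replicate 1 was the lowest of the 6 arrays and knockout replicates 2 and 3 were the highest. Their differences were 0.66 and 0.55 over all arrays and 1.39 and 1.17 without replicate 1 (adjusted p = 0.011 and 0.034).

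*Lhx9*, a LIM-homeodomain factor of limb and gonad, and *Shox2*, a factor of proximal limb skeleton, varied most within a genotype. *Lhx9* measured 3.58, 6.17 and 7.21 on the wild-type arrays and 3.95, 10.11 and 9.80 in knockout, with both replicate 1 arrays under background. Its difference was 2.30 ± 1.88 (SE; limma adjusted p = 0.911) and 3.26 without replicate 1 (adjusted p = 0.010), and all 4 of its probe sets were higher, by 0.99 to 2.30. *Shox2* measured 8.08, 9.87 and 10.30 on the wild-type arrays and 6.53, 12.02 and 11.90 in knockout. It was lower by 1.55 within replicate 1 and higher by 2.15 and 1.59 within replicates 2 and 3. *Dlx1*, a distal-less homeobox factor, followed a like order of arrays, at 4.97, 6.66 and 6.84 on the wild-type arrays and 5.69, 7.84 and 7.89 in knockout. Its neighbour *Dlx2* differed by −0.16 ± 0.37 (SE). *Emx2*, a homeobox factor of the urogenital system and forebrain, measured 7.38, 7.92 and 7.44 against 7.01, 8.49 and 8.15.

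Among the 4 Hox cofactors, *Meis1* and *Pbx3* did not overlap between genotypes by the probe set used, with differences under 1. *Meis1* measured 7.17, 6.73 and 6.85 on the wild-type arrays and 7.31, 7.57 and 7.93 in knockout. Its difference was 0.69 ± 0.22 (SE; limma adjusted p = 0.743) and 0.96 without replicate 1 (adjusted p = 0.031). Of its 3 probe sets 2 were higher, and the dimmest was at −0.08. The second probe set of *Meis1*, with a mean just above background (5.33), differed by 0.26 and overlapped. It measured 5.10, 5.33 and 5.18 on the wild-type arrays and 4.86, 6.49 and 5.04 in knockout. *Pbx3* measured 9.33, 8.95 and 9.44 on the wild-type arrays and 9.94, 9.50 and 9.60 in knockout, with a difference of 0.44 ± 0.20 (SE; adjusted p = 0.766). The second probe set of *Pbx3*, also above background, overlapped and differed by 0.18. It measured 7.96, 7.59 and 8.08 on the wild-type arrays and 7.75, 8.26 and 8.15 in knockout. *Meis2*, at 7.16, 8.99 and 9.65 against 7.96, 8.26 and 8.88, overlapped. Its 4 probe sets were all lower, by −0.53 to −0.23, but without wild-type replicate 3 its difference was 0.29.

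On the lower side, *Msx2*, a homeobox repressor induced by BMP signals in limb, tooth and skin, had the smallest p of the 51. It measured 8.67, 9.30 and 8.46 on the wild-type arrays and 7.88, 5.16 and 5.97 in knockout. All knockout arrays lay below all wild-type arrays, knockout replicate 1 by the least. The means were 8.81 ± 0.44 and 6.34 ± 1.40 (SD, n = 3), a 5.55-fold lower signal (difference −2.47 ± 0.71, SE; limma adjusted p = 0.743), and −3.31 without replicate 1 (adjusted p = 0.011). Its second probe set was under background on every array. *Msx1*, its close relative, differed by −0.21 ± 0.21 (SE).

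*Pax1* and *Pax9*, paired-box factors of the sclerotome, from which vertebrae form, both had lower means in knockout. *Pax9* measured 6.62, 8.43 and 7.92 on the wild-type arrays and 6.47, 5.48 and 5.96 in knockout. The genotypes did not overlap, but the replicate 1 arrays differed by only −0.15. The difference was −1.68 ± 0.52 (SE; limma adjusted p = 0.743) and −2.45 without replicate 1 (adjusted p = 0.009), and all 3 of its probe sets were lower, by −1.95 to −0.73. *Pax1* measured 5.55, 6.67 and 7.04 on the wild-type arrays and 6.21, 4.64 and 5.16 in knockout, higher by 0.66 within replicate 1 and lower by −2.03 and −1.88 within the others. The genotypes of *Pax1* overlapped, with a difference of −1.08 ± 0.54 (SE; limma adjusted p = 0.783) and −1.96 without replicate 1 (adjusted p = 0.012). Its second probe set, with a mean just under background (5.29), was at −0.89, and there the genotypes did not overlap.

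*Dmrta2*, a DM-domain factor of neural progenitors, and *Foxd1*, a forkhead factor of kidney stroma and dermal papilla, had signal only on 2 or 3 arrays. *Dmrta2* measured 4.75, 8.74 and 8.87 on the wild-type arrays and 4.42, 4.06 and 3.72 in knockout, so wild-type replicates 2 and 3 alone were above the background level. With knockout set to that level, the wild-type mean was at least 4.42-fold brighter over all arrays (limma adjusted p = 0.743) and at least 11.3-fold without replicate 1 (adjusted p = 0.002). The 95% interval of the measured difference over all arrays was −6.18 to −0.60. The measured difference of −3.39 lay between −4.74 and −2.68 when each array was left out in turn. *Foxd1* measured 4.94, 7.75 and 7.90 on the wild-type arrays and 5.52, 3.69 and 4.03 in knockout. Its difference was −2.45 ± 0.93 (SE; adjusted p = 0.743). Without replicate 1 the wild-type mean was at least 5.72-fold brighter with knockout set to the background level (adjusted p = 0.002). Within replicate 1 *Foxd1* was higher in knockout by 0.58. *Twist1* was at −0.78 ± 0.40 (SE) with overlapping genotypes.

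**Figure D3:**
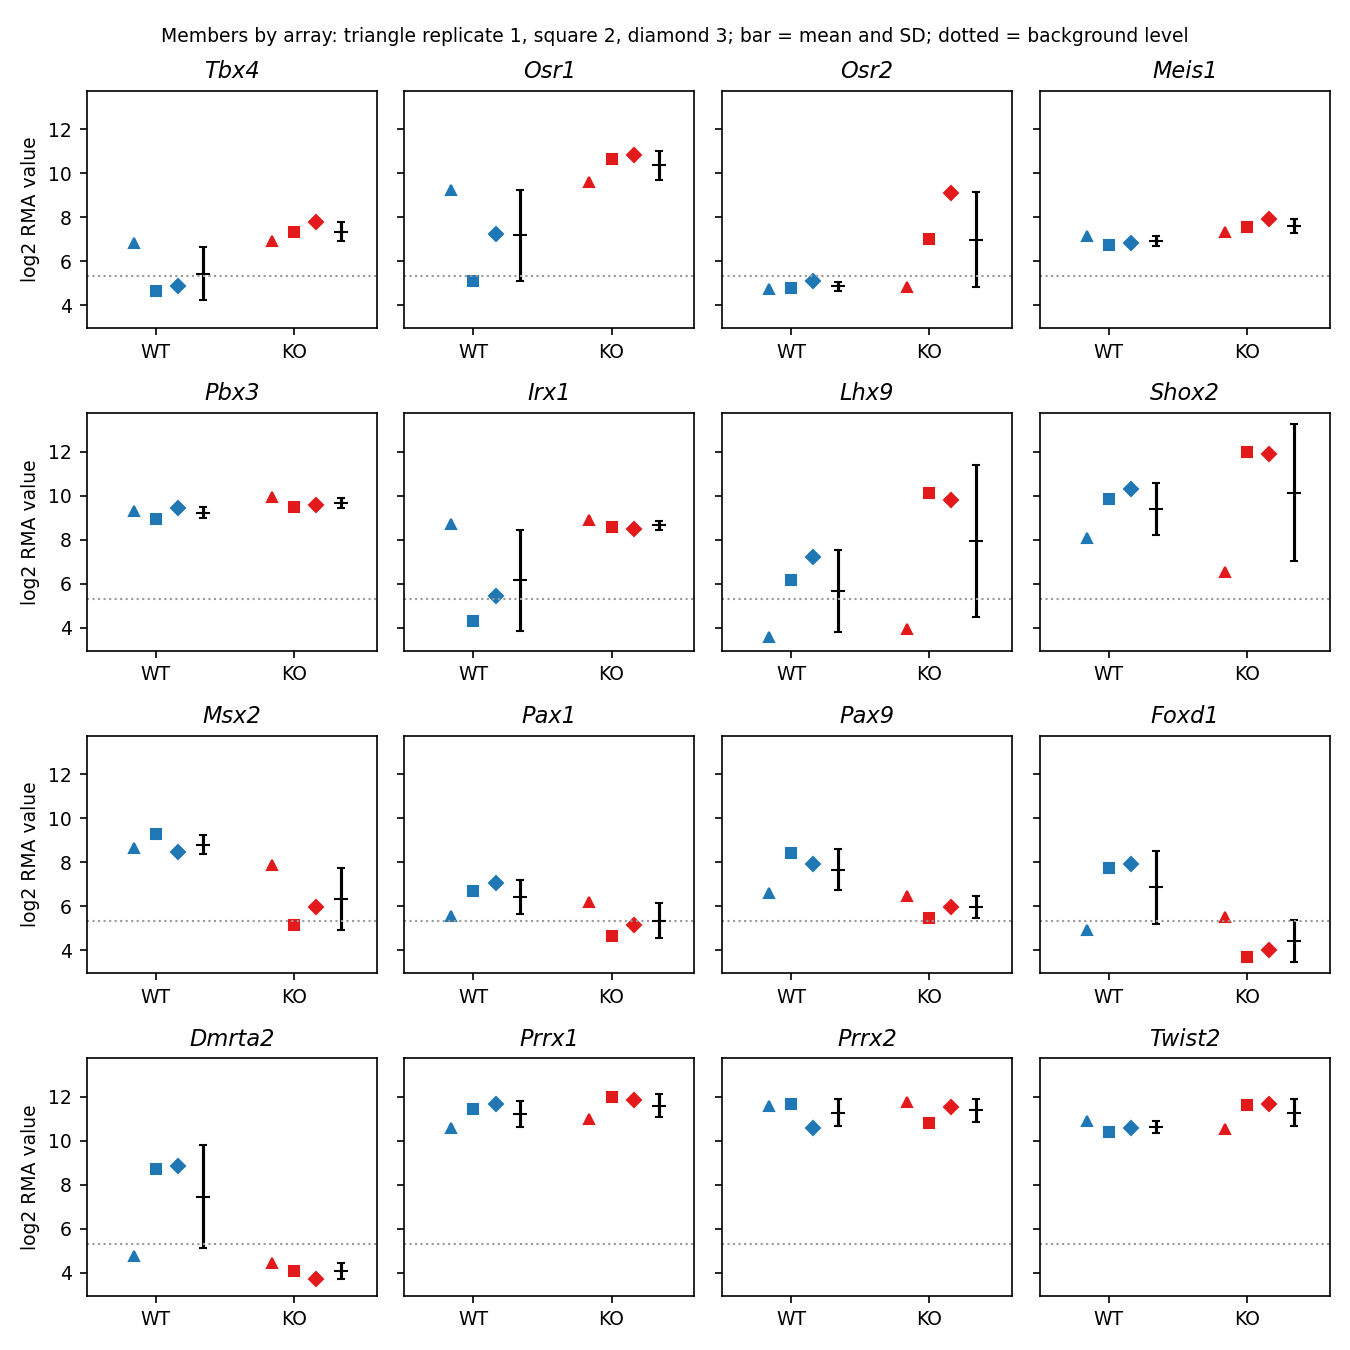
Log2 RMA value (y axis, shared by all panels) of 16 members in wild type (WT, blue) and knockout (KO, red), 1 symbol per array with the shape giving the replicate number, beside the mean with its SD (n = 3) and a dotted line at the background level. The triangles of replicate 1 are close between genotypes for *Tbx4*, *Osr2*, *Irx1*, *Lhx9* and *Dmrta2*, while the squares and diamonds separate.

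Members without overlap between genotypes were 4 on the higher side (*Tbx4*, *Osr1*, *Meis1* and *Pbx3*; 7.84% against 5.56% of all genes) and 4 on the lower side (*Msx2*, *Pax9*, *Dmrta2* and the background-level *En2*; 7.84% against 4.38%). Leaving out wild-type replicate 1 gave 8 and 9, leaving out knockout replicate 1 gave 14 and 9, and leaving out knockout replicate 2 gave 7 on the higher side. Genotypes separate more easily with fewer arrays, so these counts are not comparable with those over all 6. With array centring the members without overlap were 2 higher (*Osr1* and *Pbx3*) and 8 lower, and with quantile normalisation 2 and 6. *Msx2*, *Pax9* and *Dmrta2* were on the lower side under each of these scalings. No share of all genes is given for these leave-outs and scalings.

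The positional factors also varied between arrays of 1 genotype. The pooled SD within genotypes had a median of 0.56 over the 36 members above background, against 0.41 over the 12055 genes above background. For 10 of the 36 (27.8%), it exceeded 0.99, the value that 10.0% of those genes exceed. These were *Dlx1*, *Dmrta2*, *Foxd1*, *Irx1*, *Irx5*, *Lhx9*, *Msx2*, *Osr1*, *Osr2* and *Shox2*. *Lhx9* had the widest spread (SD 2.79), with a range of 3.63 on the wild-type arrays and 6.16 in knockout. *Irx1* ranged over 4.43 in wild type but 0.40 in knockout, and *Osr2* over 0.38 in wild type but 4.30 in knockout. One end of each wide range was replicate 1: *Lhx9* at 3.58 in wild type and 3.95 in knockout, *Irx1* at 8.74 in wild type and *Osr2* at 4.82 in knockout. *Dmrta2*, *Foxd1* and *Osr2* were among the 36 only through the arrays where they were high, which favours a wide spread. The part of replicate 1 and of this filter in the share of 27.8% was not tested.

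Signals that act on these factors were read from lists of pathway genes. In the BMP list, which holds the inducers of *Msx2*, 0 of 22 genes passed over all 6 arrays, 10 lying above 0 and 12 below. The ligand *Bmp2* had the smallest p, at 4.30, 7.27 and 8.44 on the wild-type arrays and 4.86, 4.14 and 4.05 in knockout (difference −2.32; limma adjusted p = 0.760). All 3 knockout arrays were under the background level, so the size of its differences is not exact. Without replicate 1, 4 of the list were lower, namely *Bmp2* (−3.76), the feedback inhibitor *Smad7* (−1.32) and the target genes *Id1* (−1.75) and *Id2* (−1.56), and the BMP-family antagonist follistatin (*Fst*) was higher by 1.23. In the Hedgehog list 0 of 10 passed over all arrays, 9 lay above 0, and 3 had an unadjusted p under 0.05. The coreceptor *Gas1* measured 10.46, 11.45 and 11.86 on the wild-type arrays and 12.52, 13.85 and 14.07 in knockout, a difference of 2.23 (limma adjusted p = 0.743). The coreceptor *Cdon* differed by 1.46 and the transcription factor *Gli2* by 2.97. Without replicate 1 these 3 and the target gene *Gli1* were higher (4 of 10).

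In the retinoic acid list 0 of 14 genes passed, and the receptor *Rxra* (0.68) had the smallest p. Without replicate 1, *Rxra*, the binding protein *Crabp2* (2.64) and the enzymes *Dhrs3* (1.09) and *Rdh10* (1.15) were higher, and the degrading enzyme *Cyp26b1* was lower (−1.80). Of 9 other TALE genes 0 passed. The Pbx-family cofactor *Pbx2* differed by 0.82 and had the smallest p, and without replicate 1 it and *Tgif2* (1.90) were higher while *Mkx* (−1.90) was lower. These shares without replicate 1 stand beside 7.56% of all genes called higher and 6.41% called lower.

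**Figure D4:**
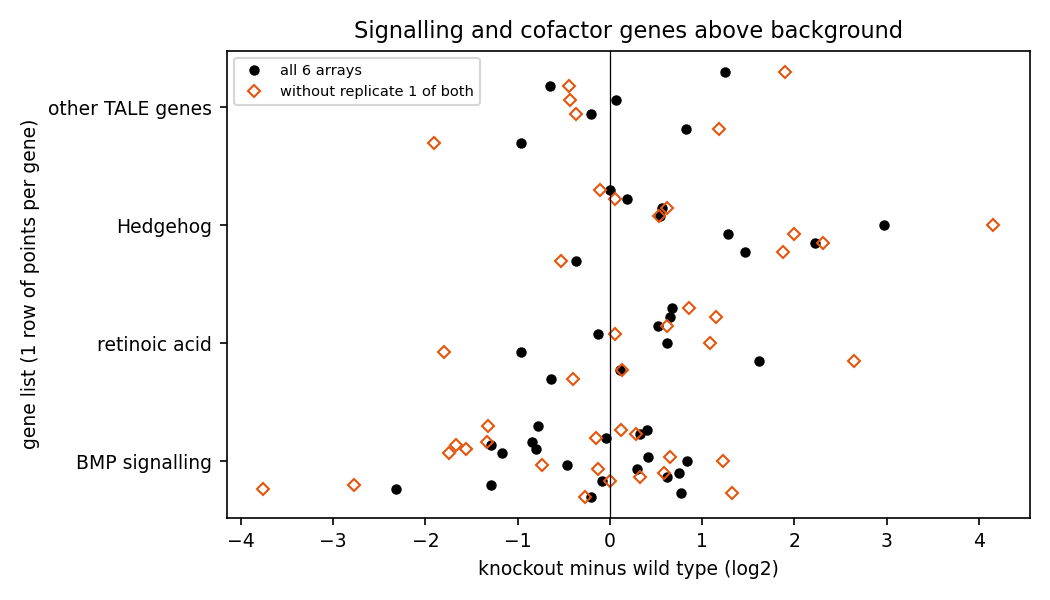
Knockout minus wild type in log2 units (x axis) of the genes above background in each pathway list (y axis), with black points for all 6 arrays and open diamonds without replicate 1 of both genotypes. The leftmost diamond is *Bmp2* (−3.76) and the rightmost is *Gli2* (4.16).

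*Tbx4* and *Meis1* did not overlap on the higher side with the deposited values, but did with array centring or quantile normalisation. Promoters of *Osr1* and *Pbx3*, the others on that side, are not shown. Promoters are shown for *Msx2*, *Pax9* and *Dmrta2*, which did not overlap on the lower side, and for *Tbx4* and *Meis1*. They are the 250 bases before the RefSeq start in build GRCm38.p6, at chr13:53472781-53473030 (minus strand), chr12:56695221-56695470 (plus), chr4:109977775-109978024 (plus), chr11:85896515-85896764 (plus) and chr11:19018970-19019219 (minus), written 5′ to 3′. Capitals mark matches on either strand to the GC box (GGGCGG), the CCAAT box (its letters as named), the TATA box (TATAAA), the core that homeodomains bind (TAATTA) and the core that Meis proteins bind (TGACAG).
Msx2: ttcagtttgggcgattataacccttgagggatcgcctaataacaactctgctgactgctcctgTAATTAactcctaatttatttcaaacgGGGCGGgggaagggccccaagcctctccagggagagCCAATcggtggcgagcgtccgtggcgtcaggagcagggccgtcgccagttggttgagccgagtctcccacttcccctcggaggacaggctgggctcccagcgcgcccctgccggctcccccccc
Pax9: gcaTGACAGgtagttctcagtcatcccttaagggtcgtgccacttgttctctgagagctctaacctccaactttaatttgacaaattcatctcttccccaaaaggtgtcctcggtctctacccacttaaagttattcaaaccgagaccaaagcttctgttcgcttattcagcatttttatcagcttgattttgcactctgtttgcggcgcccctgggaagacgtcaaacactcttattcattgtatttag
Dmrta2: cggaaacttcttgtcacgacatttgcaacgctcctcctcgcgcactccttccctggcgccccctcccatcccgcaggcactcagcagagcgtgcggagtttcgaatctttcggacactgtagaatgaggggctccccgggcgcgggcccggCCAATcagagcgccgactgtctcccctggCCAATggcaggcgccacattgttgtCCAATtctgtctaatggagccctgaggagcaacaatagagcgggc
Tbx4: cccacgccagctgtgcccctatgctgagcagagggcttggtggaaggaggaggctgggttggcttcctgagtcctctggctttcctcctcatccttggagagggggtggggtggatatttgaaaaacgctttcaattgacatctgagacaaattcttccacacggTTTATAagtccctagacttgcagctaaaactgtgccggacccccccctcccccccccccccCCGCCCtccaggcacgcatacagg
Meis1: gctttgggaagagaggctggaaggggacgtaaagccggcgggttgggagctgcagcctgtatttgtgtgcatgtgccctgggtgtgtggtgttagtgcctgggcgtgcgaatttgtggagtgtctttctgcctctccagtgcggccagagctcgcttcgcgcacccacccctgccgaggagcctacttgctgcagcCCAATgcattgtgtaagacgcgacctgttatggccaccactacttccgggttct

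Of the members, 33 had a promoter in the RefSeq table. Their promoters were rich in CpG, with a median of 16 per 250 bases against 6 over all 32851 promoters. *Msx2* and *Dmrta2* had 16 and 19, *Meis1* 13, and *Pax9* and *Tbx4* 7 and 6. *Dmrta2* held 3 matches to the CCAAT box, and this motif occurred in 33.8% of all promoters. The TATAAA match of *Tbx4* was on the opposite strand, and 12.4% of all promoters held this motif. The homeodomain core was found in *Msx2* (4.84% of all promoters), the Meis core in *Pax9* (15.9%) and the GC box in *Msx2* and *Tbx4* (32.7%). These matches describe letters in the window and not binding.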

How the data were processed

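The authors deposited log2 values from Affymetrix mouse arrays, 1 per probe set. The submitters' processing notes name RMA and R 2.11.1. RMA equalises array distributions, so a change in total RNA is not visible and dim differences are compressed. Of 45101 probe sets, 64 were controls, and 34945 of the other 45037 had 1 gene in the platform table, 932 several and 9160 none. All 51 members matched RefSeq by Entrez identifier, with 0 symbols changed.

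The comparison of genotypes used limma 3.58.1 (R 4.3.3; lmFit, eBayes, two-sided, Benjamini-Hochberg over 18193 genes, threshold 0.05), with genotype as the only term. Values are given as mean ± SD over 3 arrays and differences as knockout minus wild type ± SE. The number of arrays limits the precision, and an exact permutation test of 3 against 3 cannot go below 0.1. Because separate animals or cultures are not stated, p-values reflect only sample-to-sample spread, possibly technical. The script was tested on simulated data.

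Full values are given for members above background that did not overlap, had an unadjusted p under 0.05 or differed by at least 1, and for the 3 highest means. Some further members were given values after these were seen, among them *Dlx1*, *Shox2*, *Irx3*, *Irx5*, *Twist1*, *Tbx3*, *Meis2* and *Emx2*. The members, lists and promoters shown were chosen with earlier results of these data known.

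The genotypes share replicate numbers. Deviations from the genotype means correlated over genes at 0.51, 0.39 and 0.35 for numbers 1, 2 and 3, so by the rule used here (each over 0.1) the block was run as a paired fit. Wild-type replicate 3 correlated best with knockout replicate 2 (0.43). A replicate 1 unlike the rest in both genotypes can produce positive correlations for all 3 numbers without any link between the others, so they do not establish that numbers 2 and 3 pair arrays.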

Additional observations from a re-analysis of the deposited data

How the results depend on the processing

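With the replicate block 7 members had an unadjusted p under 0.05 on the higher side in place of 3, and 3 on the lower side in place of 4, without *Foxd1*; 0 members passed after adjustment with it (limma, smallest adjusted p 0.424). Array weights called 1219 genes higher and 882 lower, 12 of them members, with 11 and 7 members at an unadjusted p under 0.05. Leaving out replicate 1 of both genotypes called 1375 genes higher and 1167 lower, 16 of them members, with 12 and 7 at an unadjusted p under 0.05 and 20 and 10 that did not overlap. Leaving out 1 array at a time called 0 to 30 genes higher and 0 to 57 lower over all genes, 0 members, left 0 to 11 members higher and 1 to 6 lower at an unadjusted p under 0.05, and gave 4 to 14 and 4 to 9 that did not overlap. Centring on the array median gave 2 and 8 that did not overlap and a median difference of −0.079, and quantile normalisation gave 2 on the higher side. Except for the replicate block, no share of all genes is given for the counts of these alternatives at an unadjusted p or without overlap. Groups of 2 arrays separate more easily than groups of 3, so the counts without overlap are not comparable between them. Taking the median of all genes as the limit left 20 members above it in place of 36. *Prrx2* was at −0.077 with array weights and between −0.24 and 0.39 when 1 array was left out, *Shox2* between −0.20 and 2.54, *Irx5* between −0.067 and 1.48 and *Meis2* between −0.95 and 0.29. The cause of these changes was not tested. The other alternatives were the mean of all probe sets of a gene, other eBayes priors, all probe sets and a filter on dim genes, and none of them called a member.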
